A study of Oryza sativa with 21 samples.

Results

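The 217 regions described here carried an m5C peak in all 3 wild-type rice seedling lists and in none of the 3 lists of a DRW1 overexpression line. They were chosen by pooling the peaks of 6 deposited lists, merging peaks that overlapped or touched into 111849 regions, and keeping the regions that a peak of every ZH11 list overlapped by at least 1 bp and no OE1 peak overlapped. ZH11 is the wild-type cultivar, and OE1 is a line that overexpresses DRW1 (DRW1-OE in the labels). Both were sampled as chamber-grown seedlings 3 weeks after germination, with 3 immunoprecipitated libraries of each genotype and an input library beside each. The sources used here give neither the promoter of the transgene nor whether the 3 libraries of a genotype came from separate plants. The comparison asks where m5C detected in the wild type is no longer listed when DRW1 is overexpressed.

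5-methylcytosine (m5C) is a methyl mark on cytosines of tRNA, rRNA and messenger RNA. Enzymes of the NSUN family place it, and in rice the family member OsNSUN2 is known for its role in heat tolerance. In m5C IP-seq, RNA is broken into fragments, those bound by an antibody to m5C are sequenced beside an input, and stretches with more immunoprecipitated than input reads are called as peaks. A peak marks a stretch of transcript and not a single cytosine, and it can be called only where the transcript is present. Fewer cells of a type, less of a transcript per cell and less methylation of it therefore cannot be told apart in these lists. The lists carry no strand and no gene names, and the sources used here do not name their genome build, so positions below are those of the lists, counted from 1, without a gene.

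The 217 regions made up 0.194% of all merged regions and 0.579% of the 37487 regions present in all 3 ZH11 lists. Of those 37487 regions, 35083 also had a peak in all 3 OE1 lists, 1693 in 2 of them and 494 in 1. The mirror class, with a peak in every OE1 list and none in ZH11, held 3815 regions, which were 3.41% of all regions and 6.32% of the 60348 regions in all OE1 lists. The presence rule fixes these counts and they carry no test. The OE1 lists were longer, with 90132 to 94379 peaks against 67984 to 79303 in ZH11, and covered 35.5 to 41.6 Mb against 18.4 to 29.5 Mb. With every list shortened to its 67984 peaks of smallest q, 768 regions were ZH11-only and 1418 OE1-only. The OE1 lists then ended within 14871 to 19219 peaks of the same q. Without the peaks tied at the end of each list, 1134 regions were ZH11-only and 623 OE1-only, with 56037 to 56948 peaks left in the OE1 lists and 65651 to 67944 in the ZH11 lists. The OE1-only class was thus the larger of both in the full and the shortened lists, and the smaller once tied peaks were left out.

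**Figure D1:**
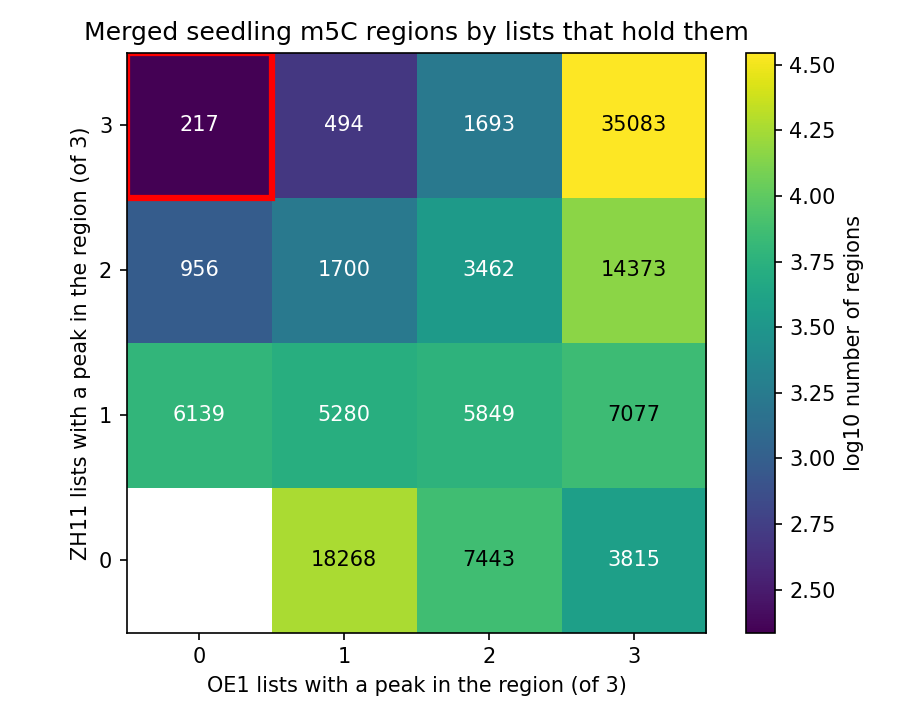
Number of merged regions by how many of the 3 ZH11 lists (vertical axis) and of the 3 OE1 lists (horizontal axis) hold a peak in them, coloured by log10 of the number. The red frame marks the 217 ZH11-only regions, the smallest class, beside 494, 1693 and 35083 regions that also have peaks in 1, 2 and 3 OE1 lists.

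The ZH11-only regions were short. Their median length was 235 bp (quartiles 188 and 296 bp, range 124 to 742 bp), against 288 bp for OE1-only regions and 756 bp for regions in all 6 lists. A region grows with every list that joins it, so lengths of classes with different numbers of lists are not alike. Together the 217 regions spanned 56.6 kb. Within them the peaks of ZH11 replicates 1, 2 and 3 had median lengths of 155, 154 and 157 bp, while over each whole list the medians were 270, 207 and 225 bp. In the 494 regions with 1 OE1 list these medians were 169, 162 and 172 bp. In regions of 2 ZH11 lists and no OE1 list they were 145.5, 139 and 142 bp. Short peaks were thus not particular to the ZH11-only regions. All but 3 of the regions had a single peak in each list.

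The authors' enrichment values of these peaks were mostly below the middle of their own list. The highest peak of a region had a median enrichment of 2.95 in ZH11 replicate 1 (range 1.96 to 5.32), of 3.34 in replicate 2 (1.81 to 7.29) and of 3.05 in replicate 3 (1.76 to 5.60). These medians stood at the 29.8th, 46.6th and 33.6th percentiles of the 3 lists. Only 17 regions lay above the median peak in all 3 ZH11 lists, 86 lay below it in all 3, and 0 were among the top 10% in all 3. In regions held by all 6 lists, the ZH11 peaks stood at median percentiles of 60.4, 56.5 and 57.9. In the 494 regions with 1 OE1 list, the percentiles were 32.2, 40.4 and 35.3, close to those of the ZH11-only regions. The percentiles of these other classes count every peak of a region and not only the highest.

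**Figure D2:**
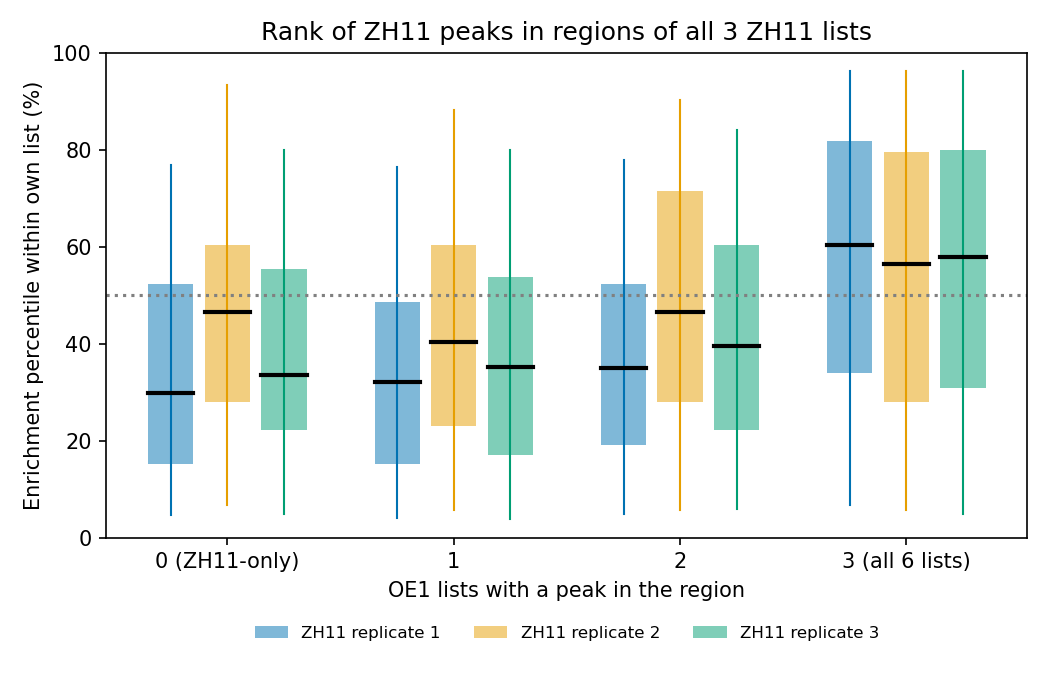
Percentile of a ZH11 peak's enrichment within its own list (vertical axis, %) for regions present in all 3 ZH11 lists, by the number of OE1 lists with a peak there (horizontal axis). Boxes span the quartiles, black bars are medians, thin lines run from the 5th to the 95th percentile of peaks, colours are the ZH11 lists and the dotted line is the middle of a list. ZH11-only regions have medians of 29.8, 46.6 and 33.6, and only regions in all 6 lists have medians above 50.

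Many of the peaks had identical p values: 35 regions shared 1 value in ZH11 replicate 1 (−log10 p 3.41), 46 in replicate 2 (3.66) and 30 in replicate 3 (2.60). Support by the authors' q values was uneven. The q was below 0.05 in all 3 ZH11 lists for 44 of the 217 regions (20.3%), in 2 lists for 70, in 1 list for 68 and in no list for 35. The lists keep peaks down to a p of about 0.05, so 173 regions met the rule with at least 1 peak whose q was 0.05 or above. Of the regions in all 6 lists 58.1% had a q below 0.05 in all 3 ZH11 lists, and of the regions with 1 OE1 list 20.9% did. A −log10 q of 5 or more was reached by 6 of the 217 regions, each in ZH11 replicate 2 alone, and 5 regions reached 2 or more in all 3 lists.

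The region with the highest mean enrichment was chr6:26831678-26831963. Its peaks had enrichments of 4.19 in ZH11 replicate 1, 7.29 in replicate 2 and 4.90 in replicate 3, with −log10 q of 2.67, 7.17 and 3.25. Replicate 2 was well above the other two lists, at the 99.3rd percentile of its own list, while the 3 summits fell within 19 bp of each other. An OE1 peak lay 82 bp outside the region, in OE1 replicate 3, with an enrichment of 3.39, and a region of all 6 lists lay 111 bp away.

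The next regions in this order differed less between lists. At chr12:11572546-11572902 the enrichments were 4.98, 5.31 and 5.60 (SD 0.311, n = 3 lists) and the −log10 q 3.32, 3.67 and 4.79. This region had the highest lowest −log10 q of all 217. At chr1:3223315-3223483 the enrichments were 4.91, 5.19 and 4.64 (SD 0.277, n = 3 lists), with summits within 20 bp. Both also had a region of all 6 lists close by, at 208 and 193 bp, where the nearest OE1 peaks had enrichments of 5.34 and 5.10.

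Replicate 2 gave the highest value in 7 of the 10 regions of highest mean, replicate 3 in 2 and replicate 1 in 1. At chr11:15441577-15441906 the enrichments were 2.87, 6.16 and 4.67, and q stayed above 0.05 in replicate 1 (−log10 q 0.937). At chr2:16189402-16189625 they were 3.26, 6.43 and 3.67, with the largest SD of the 10 (1.73). Replicates 1 and 3 were close to each other there and replicate 2 stood apart. At chr5:23689003-23689173 they were 4.05, 5.46 and 3.88, while at chr8:2852036-2852280, with 3.79, 4.27 and 4.88, replicate 3 was the highest. Over all 217 regions replicate 2 had the highest enrichment in 102, replicate 3 in 68 and replicate 1 in 47. ZH11 replicate 2 was also the shortest list with the least covered length, and the part of this in the order of the regions was not tested.

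**Figure D3:**
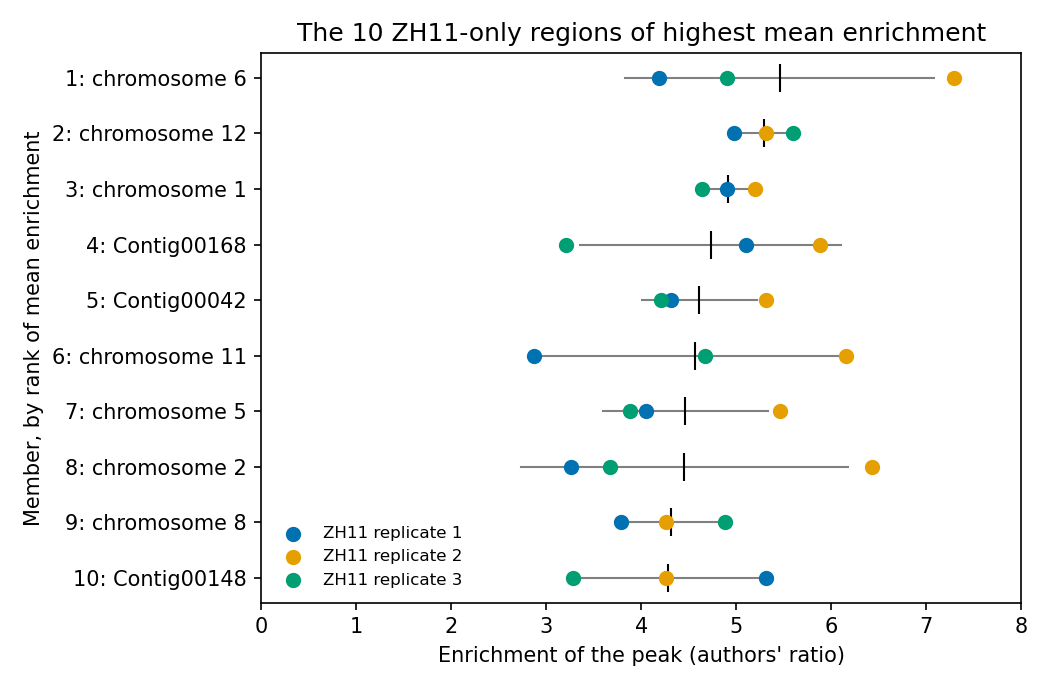
Enrichment as the authors gave it (horizontal axis, ratio) of the 10 ZH11-only regions of highest mean, named by rank and chromosome or contig. Coloured points are the 3 ZH11 lists, black ticks are means and grey lines span 1 SD on either side (n = 3 lists). Replicate 2 is the highest point in 7 of the 10, and the SDs run from 0.277 to 1.73.

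One further region was among the 5 of highest lowest −log10 q without being among the 10 most enriched. It lay at chr11:12089287-12089431, where enrichments were only 2.66, 3.29 and 3.02 and the −log10 q 2.67, 3.58 and 3.33. The nearest OE1 peak, 224 bp away, had an enrichment of 3.71 and a −log10 q of 14.7. It belonged to a region with peaks in all OE1 lists and in 2 ZH11 lists.

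Within a region the 3 ZH11 lists overlapped in part. The bases common to all 3 lists had a median of 107 bp, or a median of 46.6% of the region, and 99 of the 217 regions had at least 50% in common. The summits of the 3 lists spanned a median of 62 bp (quartiles 33 and 98 bp). In 4 regions no base was common to all 3 lists, although merging had joined their peaks. The longest region, chr7:9319271-9320012, was one of them, with summits 553 bp apart and enrichments of 2.99, 3.90 and 2.59. The third longest, chr4:30744217-30744792, took its 576 bp mainly from a 566 bp peak of replicate 1, and its q was above 0.05 in every list. The shortest regions were Contig00089:22018-22141, chr9:2714295-2714423 and chr2:17641091-17641221, of 124, 129 and 131 bp. In these the common bases made up 88.7%, 76.0% and 82.4%. At the last of them the enrichments were 3.53, 3.96 and 3.51 and q was below 0.05 in all lists.

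Enrichment values of the 217 regions followed each other weakly from list to list. Spearman's rho across regions was 0.241 between replicates 1 and 2, 0.250 between 1 and 3 and 0.162 between 2 and 3, against 0.359, 0.594 and 0.359 over the regions in all 6 lists. The 2 classes differ in their range of enrichment. The highest values in replicates 1, 2 and 3 were 5.32, 7.29 and 5.60 in ZH11-only regions and 12.3, 15.4 and 15.3 in regions of all 6 lists. The part of this range in the lower rho was not tested. Regions are not independent replicates, and they share the library and its depth within a list. The SD over the 3 lists had a median of 0.433, or 14.0% of the region's mean.

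Distances to OE1 peaks are given without those of ZH11 regions held by fewer lists, so they have no like baseline. The nearest OE1 peak lay at a median of 477 bp (quartiles 219 and 1682 bp), and 110 of the 217 regions (50.7%) had one within 500 bp. This distance depends on the rule, since regions chosen with ZH11 peaks of q below 0.05 had a median of 856.5 bp. Regions chosen without OE1 replicate 1, 2 or 3 had medians of 12, 182 and 40 bp to a peak of the full OE1 lists. Those sets take in regions that hold a peak of the list left out, so their shorter gaps follow from the choice itself. For 46 of the 110 regions with an OE1 peak within 500 bp, the nearest OE1 peak belonged to a region present in all 6 lists. For 22 it belonged to a region with no ZH11 peak, 18 of them held by a single OE1 list. The nearest OE1 peaks of the 110 had a median enrichment of 3.29, and 81 had a q below 0.05. OE1-only regions lay at a median of 805 bp from a ZH11 peak, and 36.3% had one within 500 bp. The OE1 lists and the ZH11 lists differ in number of peaks, so these distances have different backgrounds. Regions with an OE1 peak within 500 bp and the other 107 had the same median of mean enrichment to 2 decimals, 3.12, and 21 and 23 of them had a q below 0.05 in all 3 lists.

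**Figure D4:**
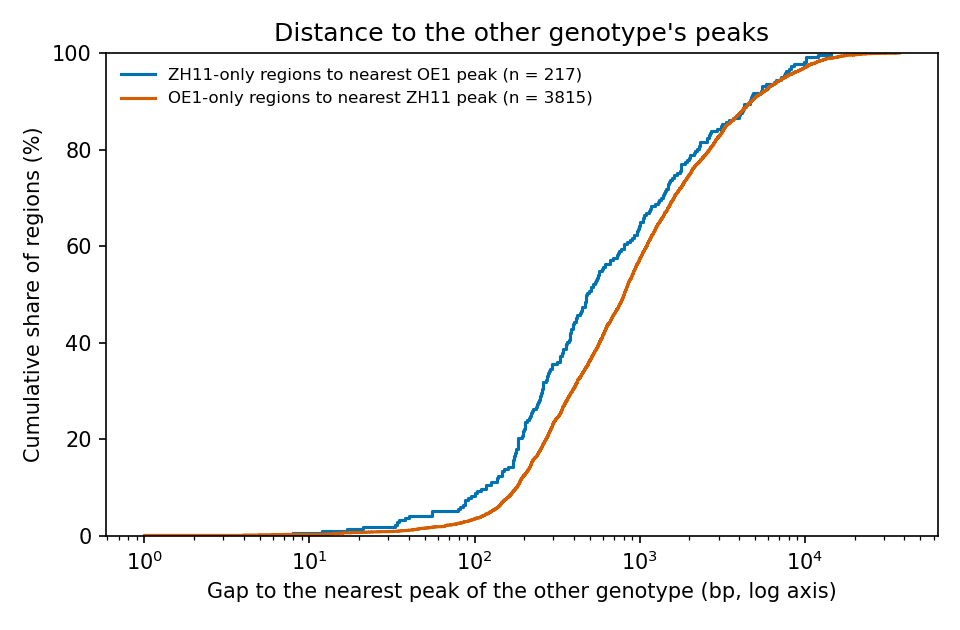
Cumulative share of regions (vertical axis, %) by the gap to the nearest peak of the other genotype (horizontal axis, bp on a log axis). ZH11-only regions (blue) have a median gap of 477 bp to an OE1 peak, and OE1-only regions (orange) one of 805 bp to a ZH11 peak.

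The regions just inside the rule had OE1 peaks almost touching them. At chr8:16839920-16840130 a peak of OE1 replicate 3 (enrichment 2.41, −log10 q 0.814) lay 8 bp away, and at chr1:717195-717542 and chr4:1270897-1271163 regions of all 6 lists lay 12 and 17 bp away. The first had ZH11 enrichments of 2.21, 3.05 and 3.74. Just outside the rule stood the 494 regions with a peak of 1 OE1 list, whose OE1 peaks had a median enrichment of 2.81 and covered a median of 75.9% of the region. Of their 499 OE1 peaks 58.1% had a q below 0.05. The least overlap was 22 bp, at chr2:6421068-6421852, by a peak of OE1 replicate 3 with an enrichment of 2.46 and a −log10 q of 0.896.

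At the other end, 18 regions had no OE1 peak within 5000 bp. The farthest was chr7:29443388-29443648, 14396 bp from the nearest OE1 peak. Its enrichments were 3.92 in replicate 1, 4.58 in replicate 2 and 3.74 in replicate 3, with −log10 q of 2.06, 2.61 and 1.99, so the 3 lists were close in size and each passed a q of 0.05. The next was chr6:19324190-19324374, at 12024 bp, with enrichments of 3.54, 3.34 and 4.40. Distance to OE1 peaks and mean enrichment did not rise together (Spearman's rho 0.0388 across the 217 regions).

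The regions were scattered over all 12 chromosomes. Chromosome 1 had the most, 29, and chromosome 5 the fewest, 10, which is 2.46 and 1.06 for every 1000 merged regions there. The nearest other ZH11-only region on the same sequence lay at a median of 667943 bp. The closest pairs were 15189 bp apart on Contig00148 and 16164 bp apart on chromosome 12, at chr12:15834835-15835138 and chr12:15851303-15851548. The latter pair had similar enrichments, of 3.66, 3.65 and 3.98 and of 3.12, 4.27 and 3.91, and each had a q below 0.05 in every list.

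Unplaced contigs, the sequences not assigned to a chromosome, held 14 of the 217 regions (6.45%), against 2.40% of all merged regions, 2.90% of regions in all 6 lists and 1.47% of OE1-only regions. That is 5.22 for every 1000 merged regions on contigs. For every 1000 regions present in all 3 ZH11 lists it is 12.3 on contigs, against 2.93 to 7.73 on the chromosomes, and 12 of the 97 contigs with any region were involved. Peaks on contigs made up 2.67% to 2.71% of the ZH11 lists and 2.32% to 2.43% of the OE1 lists, and the 2 ranges did not overlap. The shares on contigs were noticed in the data and were not tested, and the number of regions is small. Without contigs 203 regions remained, with a median length of 237 bp.

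The most enriched contig region was Contig00168:370-1061, which was also the second longest at 692 bp and lay 10128 bp from the nearest OE1 peak. Its enrichments were 5.10, 5.88 and 3.21 and its −log10 q 3.90, 14.9 and 1.41. The −log10 q of replicate 2 was the highest of any of the 217 regions in any list, and replicate 3 was far lower, with a peak of 122 bp against 687 bp in replicate 2. Contig00042:58116-58266 was more even, at 4.32, 5.31 and 4.21, with summits within 11 bp and a q below 0.05 in all lists. Contig00148:36157-36574, at 5.32, 4.27 and 3.28, had no base common to the 3 lists. This region, Contig00011:32586-32750 and Contig00157:17364-17632 were the last regions listed on their contigs, which held 42, 4 and 20 merged regions. Each of the 97 contigs with any region has 1 such last region, among 2682 merged regions on contigs. The other ZH11-only contig regions had mean enrichments from 2.89, at Contig00033:38379-38675, to 3.81, at Contig00094:72096-72233. Contig00167:1681-1890 agreed best between lists among the 14, at 3.54, 3.65 and 3.74 (SD 0.104, n = 3 lists).

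**Figure D5:**
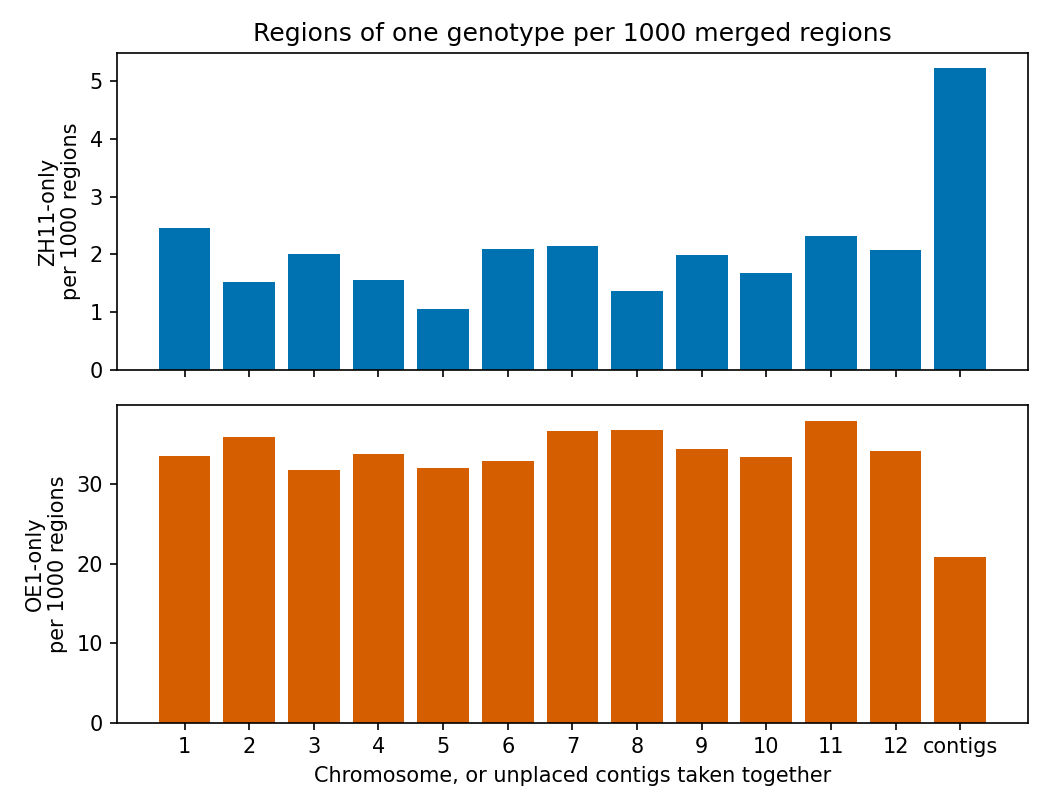
ZH11-only regions (upper panel) and OE1-only regions (lower panel) for every 1000 merged regions, by chromosome and for the unplaced contigs together; the vertical axes start at 0 and differ in scale. On contigs the ZH11-only value is 5.22, against 1.06 to 2.46 on chromosomes, and the OE1-only value is 20.9, against 31.8 to 38.0.

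A subset of 23 regions also met the rule with q below 0.05 and with shortened lists. These regions met it as well with joining and with no OE1 peak within 500 bp. A cover of at least 10% was met by all 217 regions and joining by 198 of them, so these settings narrowed the subset little. The selection was made after the data were seen, and the 23 regions are described next. Their mean enrichments ran from 3.00 to 4.73. Among them were chr7:29443388-29443648, chr6:19324190-19324374, chr5:23689003-23689173, chr8:2852036-2852280, Contig00042:58116-58266 and Contig00168:370-1061. The 3 regions of highest mean enrichment were not among them, each having an OE1 peak within 500 bp. A cover of at least 50% was not required of the 23 regions. At Contig00168:370-1061 the replicate 3 peak covered 122 of 692 bp, and at chr3:13389292-13389811 it covered 253 of 520 bp. At chr6:20525287-20525515 the replicate 2 peak covered 105 of 229 bp. These regions fell short of that cover. None of the 217 regions met the rule when every list was limited to a −log10 q of at least 5.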

How the data were processed

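Rice seedlings of ZH11 and OE1 were profiled by m5C IP-seq, and 6 peak lists were used, each paired by the labels with 1 immunoprecipitated and 1 input library. Per peak, the authors deposited an enrichment ratio, −log10 values of p and q, and a summit. Of tools, HISAT2, BWA, featureCounts and DESeq appear in the submitters' processing notes, with no version. The sources used here do not name the peak caller, its settings, the genome build or the read depth, so the depth is unknown and no interval from counts could be given. In the reference table at hand the last gene of every chromosome ended beyond the last listed peak. The gap was widest on chromosome 9, with the last gene ending at 27469812 and the last peak at 22937817. These positions do not show whether the table and the lists share an assembly. No gene or sequence was therefore assigned, and the grain count table, which names genes, was not used here.

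Peaks were merged in Python 3.11.15 with pandas 2.3.3 and numpy 2.4.6, and the rule was checked on simulated lists. Where a list had more than 1 peak in a region the highest value was used. Since the rule used the contrast of both genotypes, values are descriptions with no test, and OE1 levels at the regions are not in the lists. The regions named were the 10 of highest mean enrichment, the 5 of highest lowest −log10 q, the 3 longest, shortest, nearest to and farthest from an OE1 peak, the closest to each other and those on contigs. The rule and the regions were chosen with earlier results of these data known. Alternatives changed the q threshold, list length, overlap, joining, flank and the lists included.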

Additional observations from a re-analysis of the deposited data

How the results depend on the processing

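The count of 217 regions stayed within 1.5 times under 5 alternatives: all lists limited to q below 0.05 (189), a cover of at least 10% (217) or 50% (218), joining over 100 bp (200) and chromosomes only (203). At q below 0.05 only 44 of the 217 were among the 189. It moved to 44 with ZH11 alone limited to q below 0.05, to 15 with −log10 q of at least 5 (0 of the 217 among them), to 768 with shortened lists (1134 without tied peaks), to 935 stretches without merging and to 107 with no OE1 peak within 500 bp. Leaving out any of the 6 lists gave 353 to 625, because fewer lists then had to agree.

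The median length of 235 bp became 280 bp at q below 0.05, 384 bp at −log10 q of at least 5, 196.5 bp with ZH11 alone at q below 0.05, 289.5 bp with shortened lists (297.5 bp without ties), 242.5 bp at 50% cover, 229 bp with joining, 95 bp without merging, 237 bp on chromosomes only and 192 to 253 bp with a list left out. The median enrichment of 3.12 became 3.72 at q below 0.05, 7.04 at −log10 q of at least 5, 3.71 with ZH11 alone at q below 0.05 and 3.45 without merging, and otherwise moved by less than the SD between lists. The median distance of 477 bp to a peak of the full OE1 lists stayed at 469.5 to 569 bp with a ZH11 list left out, joining, 10% cover or chromosomes only. It became 856.5 bp with ZH11 alone at q below 0.05, 221.5 bp at 50% cover and 1757 bp with the flank. With an OE1 list left out it became 12 to 182 bp, and where all lists were thresholded or shortened it became 0. OE1 peaks left out of the rule then overlap or adjoin the regions. Without merging it was also 0, since those stretches are cut at the edges of OE1 peaks. For the enrichment at thresholds on q the change follows from keeping stronger peaks. For the rest, apart from these distances, the cause was not tested. The planned tests of grain transcripts were not run, since no region could be placed in a gene. No paired analysis was possible because the results come from no test.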
